A study of Homo sapiens with 8 samples.

Results

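The EGF family ligands are 8 genes that encode secreted or membrane-anchored growth factors: EGF, TGFA, AREG, EREG, HBEGF, BTC, EPGN and NRG1. They were taken by gene name from a table of 62649 genes, all 8 were found there, and their values were read in all 8 libraries with the 2 cell lines kept apart. Only 5 of the 8 (TGFA, AREG, EREG, HBEGF and NRG1) reached 1 TPM in at least 2 libraries, the level needed to enter the tests. TPM is a gene's share of a library's transcripts after correction for gene length, scaled so that each library has the same sum.

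The libraries came from AsPC-1 and PANC-1, established human pancreatic ductal adenocarcinoma lines. Both lines were grown as spheroids in a methylcellulose medium for 3 days and then treated for 24 h. Each line had 4 groups of 1 library each: the vehicle, 10 µM roseoflavin (a riboflavin analogue), 1 nM trametinib (an inhibitor of the kinases MEK1 and MEK2), and both compounds together. Each line stands for itself only, no group was repeated, and the spread used in the tests came from the other line or the other compound.

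All of these ligands are made as membrane precursors that metalloproteases cut from the cell surface. TGFA, AREG, EREG, HBEGF, BTC, EPGN and EGF bind the receptor EGFR, and HBEGF, EREG and BTC bind ERBB4 as well. NRG1 is a neuregulin and binds ERBB3 and ERBB4. The receptors pair with each other or with ERBB2, which has no known ligand, and signal through adaptors to the kinases MEK and ERK. In pancreatic duct carcinogenesis EGFR ligands such as TGFA are known to act on the same cells that make them.

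Read counts were not used here as such, but TPM multiplied by exon length fell close to whole multiples of a fixed step in each library, which gave 19521537 to 28007255 reads on genes per library. The read numbers and 95% intervals below rest on these steps and cover counting error only. Mitochondrially encoded genes took 41.2% to 44.1% of each AsPC-1 library's TPM and 22.8% to 25.6% of each PANC-1 library's, so all other values of a line share that scale. The epithelial markers EPCAM, KRT8, KRT18, KRT19 and CDH1 had a summed level of 7392 to 8509 TPM across AsPC-1 libraries and 2709 to 3029 across PANC-1 libraries. EPCAM alone averaged 1357 TPM in AsPC-1 against 15.9 in PANC-1. The mesenchymal markers VIM, ZEB1, CDH2 and FN1 summed to 668 to 825 TPM and to 3155 to 3416 TPM. Leukocyte, endothelial and acinar lists summed to at most 4.095, 0.096 and 0.991 TPM in any library. The leukocyte sum was nearly all CD14, which averaged 3.75 TPM in AsPC-1 and 1.01 in PANC-1, with CD3E at 0 throughout. Of the fibroblast list only LUM was high, at a mean of 126 TPM in AsPC-1, while DCN averaged 0.07 TPM there.

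EPGN, EREG, AREG and BTC lie side by side. On GRCh38, with GENCODE 29 gene bounds, EPGN (chr4:74308473-74315307), EREG (chr4:74365143-74388751) and AREG (chr4:74445134-74455009) lie on the plus strand and BTC (chr4:74744759-74794686) on the minus strand, within 486 kb. EGF lies farther along the same chromosome (chr4:109912884-110012266, plus strand). TGFA is at chr2:70447280-70554193 and HBEGF at chr5:140332843-140346631, both on the minus strand. TGFA and NRG1 each contain annotated intronic transcripts on their own strand, TGFA-IT1 in the first and NRG1-IT1 and NRG1-IT3 in the second. These overlaps are of gene bounds, and whether any reads are shared was not tested.

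The promoters of AREG, EREG, TGFA and HBEGF, the EGFR ligands that entered the tests, are shown. AREG and EREG are neighbours that differed in the same direction between the lines. HBEGF passed the test between lines only under some of the scalings given below. Each is the 250 bases before the RefSeq start (GRCh38.p14), written 5′ to 3′ on the gene's strand, with matches to 5 motifs on either strand in capitals. The positions are chr4:74444886-74445135 (plus) for AREG, chr4:74364895-74365144 (plus) for EREG, chr2:70553827-70554076 (minus) for TGFA and chr5:140346604-140346853 (minus) for HBEGF. The TGFA window lies wholly, and the HBEGF window partly, inside the GENCODE 29 gene bounds given above.
AREG: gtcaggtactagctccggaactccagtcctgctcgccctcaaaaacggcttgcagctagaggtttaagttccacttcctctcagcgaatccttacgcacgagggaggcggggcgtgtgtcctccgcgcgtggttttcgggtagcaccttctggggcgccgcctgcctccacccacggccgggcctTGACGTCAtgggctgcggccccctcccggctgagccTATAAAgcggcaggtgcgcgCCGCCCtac
EREG: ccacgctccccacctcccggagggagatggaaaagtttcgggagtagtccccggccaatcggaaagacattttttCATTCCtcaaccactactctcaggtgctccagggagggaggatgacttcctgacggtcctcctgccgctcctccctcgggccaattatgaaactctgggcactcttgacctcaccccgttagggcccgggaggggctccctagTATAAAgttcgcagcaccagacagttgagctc
TGFA: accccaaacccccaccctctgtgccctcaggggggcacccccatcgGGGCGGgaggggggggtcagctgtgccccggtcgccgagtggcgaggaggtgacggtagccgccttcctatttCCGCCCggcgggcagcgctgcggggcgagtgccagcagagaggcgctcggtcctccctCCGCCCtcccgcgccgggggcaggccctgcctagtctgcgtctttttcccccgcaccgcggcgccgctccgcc
HBEGF: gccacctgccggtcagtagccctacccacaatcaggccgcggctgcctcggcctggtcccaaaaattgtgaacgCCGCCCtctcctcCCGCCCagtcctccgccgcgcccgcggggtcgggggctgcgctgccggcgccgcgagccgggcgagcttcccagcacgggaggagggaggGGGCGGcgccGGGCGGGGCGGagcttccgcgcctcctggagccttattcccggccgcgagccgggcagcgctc
AREG held a TATA box (TATAAA) starting 29 bases before the start, a cyclic AMP response element (CRE, TGACGTCA) starting at -65, and 1 GC box (SP1 motif, GGGCGG) at -9. EREG held a TATA box at -32 and, on the other strand, a TEAD motif (GGAATG) at -175. TGFA held 3 GC boxes and HBEGF 5, of which the pair nearest the start shares 1 base, and neither held TATAAA. The AP-1 motif (TGANTCA) was in none of these 4 windows. Among 35116 RefSeq promoters of the same length, 10.7% held TATAAA, 1.65% the CRE, 42.6% the GC box, 11.9% the TEAD motif and 6.57% the AP-1 motif. Such matches describe letters only. Promoter windows were taken for 7 of the 8 genes, and NRG1 was left out.

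The lines expressed different ligands. AsPC-1 spheroids expressed mainly AREG and TGFA with some EREG and HBEGF, whereas PANC-1 spheroids expressed mainly HBEGF and NRG1. The 8 ligands summed to 83.5, 89.0, 90.7 and 105.8 TPM in AsPC-1 (vehicle, roseoflavin, trametinib, both), against 17.2, 16.7, 14.4 and 13.7 TPM in the PANC-1 libraries. AREG made up 54.4% to 57.3% of the sum in AsPC-1, and HBEGF 47.6% to 58.7% in PANC-1. NRG1 made up 20.8% to 26.6% of the sum in PANC-1.

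**Figure D1:**
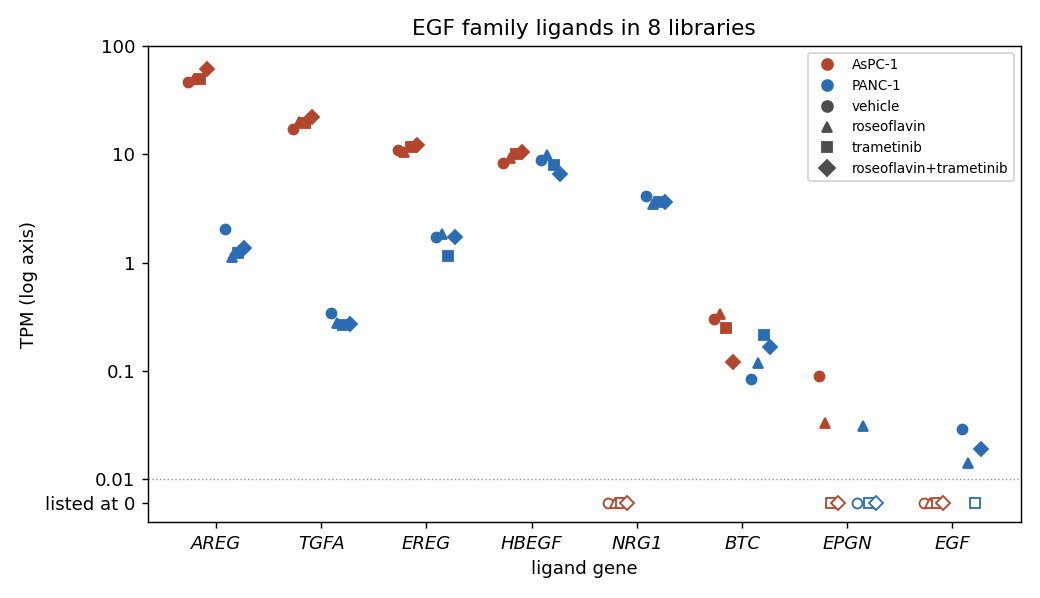
Level of each ligand gene in each library, in TPM on a log axis. Colour gives the cell line and shape the treatment, 1 point per library, and open points at the bottom are listed at 0. AREG, TGFA and EREG of the 2 lines do not overlap, HBEGF does, and NRG1 has values above 0 in PANC-1 only.

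AREG encodes amphiregulin, an EGFR ligand of low affinity. Its level was 46.8 TPM with the vehicle, 49.2 with roseoflavin, 49.3 with trametinib and 60.6 with both in AsPC-1 (735 to 934 reads). In PANC-1 it was 2.03, 1.14, 1.22 and 1.35 TPM in the same order (14 to 30 reads). Every AsPC-1 library was above every PANC-1 library, and the mean level was 35.9 times as high. The difference, PANC-1 minus AsPC-1, was -4.44 ± 0.126 (SE) on the log2(TPM + 1) scale (adjusted p = 1.48e-06, limma).

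TGFA encodes transforming growth factor alpha. It stood at 17.0, 19.7, 19.4 and 22.3 TPM in AsPC-1 (853 to 1028 reads), and in PANC-1 at 0.340, 0.274, 0.263 and 0.271 TPM (9 to 15 reads). This was the widest gap in mean level among the ligands above 0 in both lines, 68.3 times. TGFA entered the fits only through AsPC-1, the line where it is high, so its test between lines adds nothing to these values and is not given. EREG, which encodes epiregulin, was at 10.97, 10.6, 11.7 and 12.3 TPM in AsPC-1, and in PANC-1 at 1.73, 1.85, 1.16 and 1.74 TPM, again without overlap. Its mean level was 7.04 times as high in AsPC-1, and the difference was -2.25 ± 0.101 (SE, adjusted p = 7.66e-06, limma).

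NRG1, which encodes neuregulin 1, had the opposite pattern. The gene lies on the plus strand at chr8:31639386-32767959. Its value was 0 in each of the 4 AsPC-1 libraries, where 3 reads would have been worth 0.0262 to 0.0292 TPM. In PANC-1 it was at 4.15, 3.48, 3.61 and 3.65 TPM (279 to 422 reads). It entered the fits only through PANC-1, so no test between lines is given, and no fold is given against a line at 0.

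HBEGF encodes heparin-binding EGF-like growth factor, which is also the receptor for diphtheria toxin. It was at 8.30, 9.16, 10.0 and 10.5 TPM in AsPC-1, and in PANC-1 at 8.82, 9.80, 7.92 and 6.54 TPM, so the ranges overlapped. Its difference between lines was -0.18 ± 0.132 (SE, adjusted p = 0.238, limma) and depended on the scaling. It was -0.73 (adjusted p = 0.00320, limma) after quantile normalization, -0.55 (adjusted p = 0.0124, limma) after rescaling without mitochondrial genes, and -0.56 (adjusted p = 0.00518, limma with voom weights) on the recovered reads. All genes together were shifted towards PANC-1, with a median difference of 0.55 on the main scale and 0.04, 0.22 and 0.26 under those 3 alternatives. Relative to that shift AREG, TGFA, EREG and HBEGF were all lower in PANC-1, with HBEGF the closest to it. Their direction was negative under every scaling.

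Of the 3 ligands that reached 1 TPM in both lines, AREG and EREG were called lower in PANC-1 and HBEGF was not called, while 83.3% of all 19122 genes tested were called, 21.3% lower and 62.0% higher. The libraries of the lines did not overlap for AREG and EREG (lower in PANC-1), against 19.8% lower and 59.4% higher over all genes. Those of TGFA and NRG1 did not overlap either. Each of these passed the filter only through the line where it is high, so this adds nothing to their values. The calls over all genes moved from 11857 higher and 4064 lower to 7863 and 7103 after quantile normalization and to 9696 and 6214 after rescaling. All 5 epithelial markers were lower in PANC-1 and all 3 tested mesenchymal markers were higher. CDH2, at 0 in AsPC-1, entered the fits only through PANC-1. The part of this marker difference in the ligands' levels was not tested.

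Within AsPC-1 the order was AREG, TGFA, EREG, HBEGF, BTC, EPGN, with EGF and NRG1 at 0. The ranges over the 4 libraries did not overlap between AREG and TGFA or between TGFA and EREG. EREG and HBEGF were close, with the lowest EREG value at 10.6 TPM and the highest HBEGF value at 10.5 TPM. Within PANC-1 the order was HBEGF, NRG1, EREG, AREG, TGFA, BTC, with EGF and EPGN at or near 0. There EREG (1.16 to 1.85 TPM) and AREG (1.14 to 2.03 TPM) overlapped and were not separable, and the ranges of all other neighbours down to BTC were apart, though TGFA and BTC rest on 2 to 15 reads each.

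BTC, EPGN and EGF were barely detected. BTC, which encodes betacellulin, was at 0.298, 0.333, 0.247 and 0.121 TPM in AsPC-1, and in PANC-1 at 0.084, 0.117, 0.216 and 0.167 TPM, which is 2 to 8 reads per library. EPGN, which encodes epigen, had 3 reads in AsPC-1 with the vehicle, 1 with roseoflavin and none in the other AsPC-1 libraries, and 1 read in PANC-1 with roseoflavin only. EGF itself was 0 in each AsPC-1 library, and had at most 2 reads (0.029 TPM) in a PANC-1 library. With trametinib both AsPC-1 values of BTC and of EPGN lay below the other 2, as for 13.3% of all genes tested, and both PANC-1 values of BTC lay above, as for 16.1%. No change of these 3 genes was detectable at this depth.

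Trametinib blocks MEK, so the ERK output list gives the background for the ligands. Of its 15 genes, 11 had a negative fitted change with trametinib in AsPC-1 (median -0.16, all genes 0.02) and 13 in PANC-1 (median -0.09, all genes 0.01), none past the threshold. DUSP6, an ERK phosphatase named after its values were seen, was at 192.7, 175.8, 154.5 and 135.6 TPM in AsPC-1 (vehicle, roseoflavin, trametinib, both). In PANC-1 it was at 18.6, 17.5, 14.0 and 12.5 TPM.

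In AsPC-1 the 4 expressed EGFR ligands all had higher values with trametinib, by small amounts that did not pass the test. The fitted changes on the log2(TPM + 1) scale, with the SE, were 0.17 ± 0.0641 for TGFA, 0.18 ± 0.166 for AREG, 0.14 ± 0.0966 for EREG and 0.21 ± 0.109 for HBEGF. Their adjusted p-values in limma were 0.367, 0.688, 0.571 and 0.480. All 4 were higher in both matched comparisons, with and without roseoflavin, as were 33.4% of all genes tested. For AREG, EREG and HBEGF both trametinib libraries lay above both libraries without it, which held for 24.0% of all genes.

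Counting error alone was smaller than some of these steps. TGFA was 13.7% higher with trametinib than with the vehicle, a log2 ratio of 0.18 with a 95% counting interval of 0.05 to 0.32, and 13.0% higher when trametinib was added to roseoflavin (0.18, interval 0.05 to 0.31). HBEGF was 20.5% higher in the first comparison (0.27, interval 0.02 to 0.52) and 14.2% higher in the second (0.19, interval -0.05 to 0.44). AREG was 5.31% higher (0.075, interval -0.07 to 0.22) and 23.2% higher (0.30, interval 0.16 to 0.44) in the same order. EREG was 7.11% higher (0.099, interval -0.06 to 0.26) and 16.1% higher (0.21, interval 0.05 to 0.38). Over all ligands and library pairs, 17 of 59 ratios had an interval that left out 0. The pairs of a line share libraries, so these ratios are not independent. The share of all genes with such an interval was not computed, so this count is not a result about the ligands. The epithelial marker sum was also higher with trametinib in AsPC-1, 7759 to 8509 TPM against 7392 to 7514 TPM, and all 5 of its genes had a positive fitted change. The mesenchymal sum was lower, 668 to 740 TPM against 774 to 825 TPM. The fibroblast sum, nearly all LUM, was higher, at 145.7 to 145.8 TPM against 102.9 to 111.5 TPM. The part of these markers in the ligands' values was not tested.

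In PANC-1 the fitted trametinib changes were negative, again below the threshold, though AREG and NRG1 were lower in only 1 of the 2 matched comparisons. The fitted change of HBEGF was -0.33 ± 0.109 (SE, unadjusted p = 0.0408, adjusted p = 1, limma), and it ranged from -0.52 to -0.14 when each library was left out in turn. A refit without a PANC-1 library rests on 1 of the 2 matched comparisons, so this range restates their values. EREG had -0.20 ± 0.0966, AREG -0.15 ± 0.166, NRG1 -0.05 ± 0.105 and TGFA -0.04 ± 0.0641 (SE), each with an adjusted p of 1 (limma). TGFA, EREG and HBEGF were lower in both matched comparisons, as were 21.5% of all genes. For TGFA and HBEGF both trametinib libraries lay below both others (11.6% of all genes), TGFA on 9 to 15 reads. HBEGF differed by -10.3% between trametinib and the vehicle (log2 ratio -0.16, counting interval -0.45 to 0.14) and by -33.3% between both compounds and roseoflavin alone (-0.58, interval -0.90 to -0.29). EREG differed by -33.4% (-0.59, interval -1.13 to -0.06) and by -6.11% (-0.091, interval -0.56 to 0.37) in the same order. AREG, on 14 to 30 reads, differed by -39.9% (-0.73, interval -1.76 to 0.23) and by 19.2% (0.25, interval -0.84 to 1.32).

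The 2 PANC-1 libraries with trametinib were the shallower ones of that line, with 20072393 and 19764007 reads on genes against 25766343 and 28007255. TPM divides out the total, and the part of depth in these differences was not tested.

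**Figure D2:**
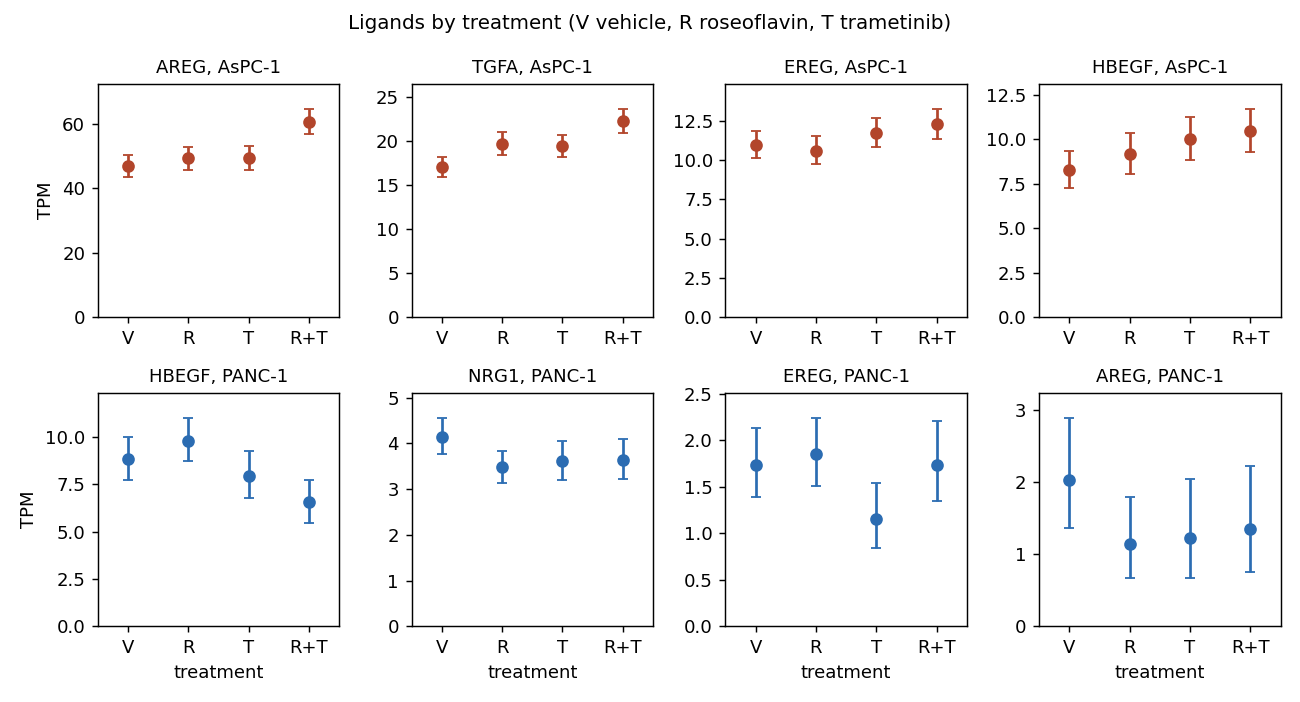
TPM of the 4 most expressed ligands of each line by treatment, 1 library per point, with bars for the 95% counting interval. AREG, TGFA, EREG and HBEGF are highest with both compounds in AsPC-1, and HBEGF is lowest with both compounds in PANC-1.

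The test of the difference between lines in the trametinib response gave -0.54 ± 0.155 (SE) for HBEGF, PANC-1 change minus AsPC-1 change (unadjusted p = 0.0266, adjusted p = 0.504, limma). EREG had -0.35 (adjusted p = 0.532), AREG -0.34 (0.674) and TGFA -0.22 (0.545), from the same limma fit. The opposite directions in the lines were therefore not called. TGFA passed the filter only through AsPC-1. At 0.263 to 0.340 TPM in PANC-1 it can hardly move on this scale, so its value mostly restates the AsPC-1 change. Across all 19122 genes, 0.0% passed the threshold for trametinib in AsPC-1, in PANC-1 or for the difference, where unadjusted p-values under 0.05 numbered 2691, 919 and 1854. With voom weights on the recovered reads, 346, 1 and 0 of 18327 genes were called, none of them a ligand. At such low shares the absence of a ligand says little about the ligands.

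Over both lines the fitted trametinib effect stayed near 0 for each of the 5 ligands, from -0.06 for HBEGF to 0.06 for TGFA, with adjusted p-values of 0.917 to 0.989 (limma). For roseoflavin over both lines they lay between -0.05 for NRG1 and 0.10 for EREG (adjusted p from 0.850 to 0.989, limma). TGFA passed the filter only through AsPC-1 and NRG1 only through PANC-1. No gene of the 19122 was called for trametinib or for roseoflavin over both lines (0.0%, with 938 and 1358 at an unadjusted p under 0.05, and 13 and 5 called with voom weights).

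In AsPC-1 TGFA had higher values with roseoflavin, by an amount that did not pass the test. The fitted change was 0.19 ± 0.0641 (SE, unadjusted p = 0.0399, adjusted p = 0.421, limma), and both libraries with roseoflavin lay above both without it, as for 10.6% of all genes. TGFA was 15.6% higher with roseoflavin than with the vehicle (log2 ratio 0.21, counting interval 0.07 to 0.35) and 14.9% higher when roseoflavin was added to trametinib (0.20, interval 0.07 to 0.33). AREG had a fitted change of 0.18 ± 0.166, HBEGF 0.09 ± 0.109 and EREG 0.0076 ± 0.0966 (SE). TGFA, AREG and HBEGF were higher in both matched comparisons, against 17.0% of all genes.

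In PANC-1 no ligand passed the test with roseoflavin. EREG had 0.20 ± 0.0966 (SE, adjusted p = 0.536, limma), with both roseoflavin libraries above both others, as for 22.9% of all genes. It was also higher in both matched comparisons, as were 30.5% of all genes. That step lay mainly in 1 comparison, 1.16 TPM with trametinib against 1.74 TPM with both (log2 ratio 0.59, counting interval 0.02 to 1.16). AREG had -0.21 ± 0.166, NRG1 -0.09 ± 0.105 and HBEGF -0.05 ± 0.109 (SE). NRG1 differed by -16.2% between roseoflavin and the vehicle (log2 ratio -0.25, counting interval -0.46 to -0.05) but was 1.11% higher when roseoflavin was added to trametinib.

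The roseoflavin response did not pass the test of a difference between lines for any ligand. The values were -0.23 for TGFA (adjusted p = 0.451), -0.39 for AREG (0.567), -0.15 for HBEGF (0.740) and 0.19 for EREG (0.616), all from limma. As with trametinib, the TGFA value mostly restates its AsPC-1 change. No gene was called for roseoflavin in AsPC-1, in PANC-1 or for the difference (0.0% each), with 2163, 2074 and 2227 genes at an unadjusted p under 0.05. The voom fit called 118, 198 and 141 of 18327 genes, again without a ligand, and these shares are too low for that to describe the ligands.

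**Figure D3:**
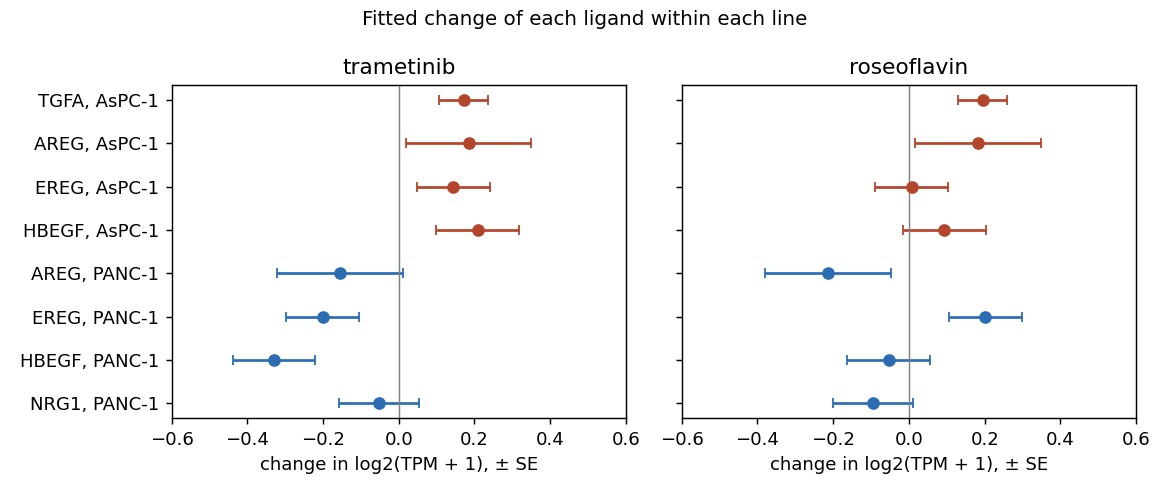
Fitted change of each expressed ligand with trametinib (left) and roseoflavin (right) in log2(TPM + 1), with bars of 1 SE from limma. The trametinib changes lie above 0 in AsPC-1 and below 0 in PANC-1, and none has an adjusted p under 0.05.

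The library with both compounds held the highest value of each of the 4 expressed ligands in AsPC-1. The share of all genes with their highest value there was not computed. Of the epithelial markers, KRT8, KRT18 and KRT19 were also highest in that library, and EPCAM and CDH1 in the one with trametinib alone. Against the vehicle, TGFA was 30.6% higher (log2 ratio 0.39, counting interval 0.25 to 0.52) and AREG 29.5% higher (0.37, interval 0.24 to 0.51). HBEGF was 26.1% higher (0.33, interval 0.09 to 0.59) and EREG 12.1% higher (0.17, interval 0.01 to 0.32). AREG stood at 46.8 to 49.3 TPM in the other 3 libraries, whose counting intervals overlap, and at 60.6 TPM with both compounds. TGFA stood at 19.7 and 19.4 TPM with 1 compound, between 17.0 with the vehicle and 22.3 with both.

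In PANC-1 HBEGF differed by -25.9% between both compounds and the vehicle (log2 ratio -0.43, counting interval -0.75 to -0.12). AREG was 1.35 TPM against 2.03 TPM, on 15 and 30 reads, and NRG1 3.65 TPM against 4.15 TPM. These are single libraries and carry no test. Counted past a change of 0.32 in log2(TPM + 1) were 2 ligands higher in AsPC-1 (TGFA and AREG), where 5.31% of all genes were, and 2 lower in PANC-1 (AREG and HBEGF), where 7.29% were. The other PANC-1 pairs had AREG and EREG lower with trametinib alone (6.02% of all genes), HBEGF lower with trametinib on top of roseoflavin (6.23%), AREG lower with roseoflavin alone (6.31%) and EREG higher with roseoflavin on top of trametinib (7.84%). Over both lines the fit of the combination against the vehicle called no gene (0.0%, 1017 at an unadjusted p under 0.05, none with voom weights). Its ligand values were 0.15 for TGFA, 0.08 for EREG, -0.00018 for AREG, -0.04 for HBEGF and -0.07 for NRG1 (limma, adjusted p from 0.911 to 1). The interaction of the compounds was 0.41 ± 0.252 (SE) for AREG (adjusted p = 1, limma), and no gene was called in it (0.0%, 536 at an unadjusted p under 0.05, none with voom weights).

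The receptors of these ligands also differed between lines. EGFR averaged 64.1 TPM in AsPC-1 against 43.3 in PANC-1, a difference of -0.56 ± 0.0465 (SE, adjusted p = 9.88e-05, limma). ERBB2 averaged 30.6 and 20.2 TPM (-0.58 ± 0.0386, SE). ERBB3, the neuregulin receptor with an impaired kinase, averaged 132 TPM in AsPC-1 against 0.41 in PANC-1 and entered the fits only through AsPC-1. ERBB4 was listed at 0 in every library except 1 PANC-1 library at 0.02 TPM. So NRG1 was present in the line with 0.33 to 0.46 TPM of ERBB3, and was listed at 0 in the line with 125 to 141 TPM of it. EGFR and ERBB2 kept their negative direction and their call under the other scalings.

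The other neuregulins divided by line as well. NRG2 averaged 9.43 TPM in PANC-1 against 0.01 in AsPC-1, NRG4 averaged 0.07 and 3.67 TPM, and NRG3 was at 0 in all libraries. NRG2 therefore lay above NRG1 (mean 3.72 TPM) in PANC-1.

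**Figure D4:**
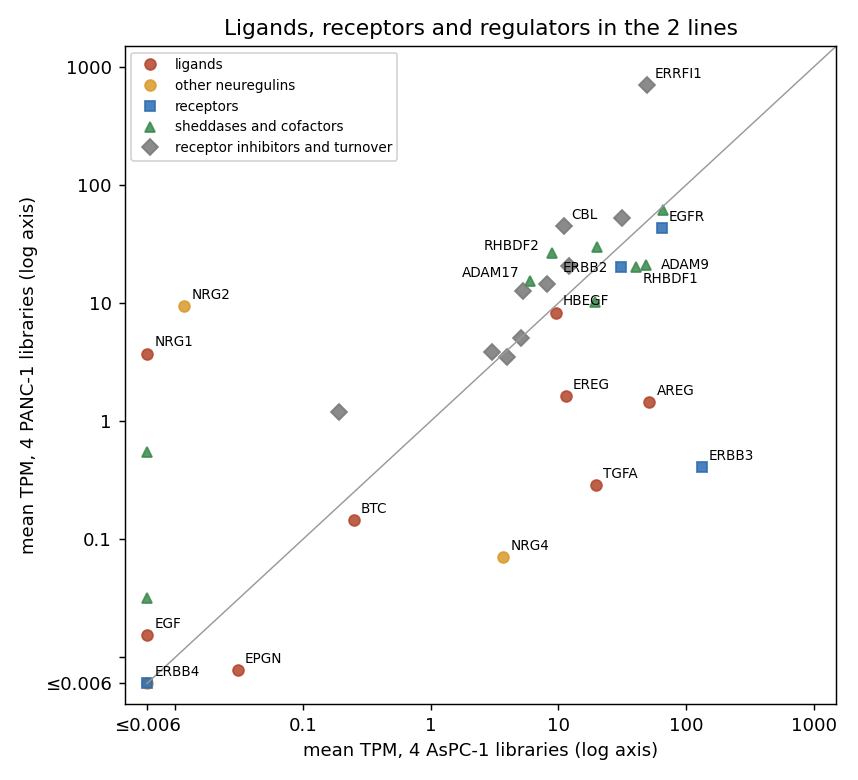
Mean TPM over the 4 libraries of each line, AsPC-1 across and PANC-1 up, both on log axes, for ligands, other neuregulins, receptors, sheddases and receptor inhibitors. The line marks equal levels and genes under 0.006 TPM are drawn at the edge. AREG, TGFA, EREG and ERBB3 lie below the line, NRG1, NRG2 and ERRFI1 above it.

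Of the 9 genes for sheddases and their cofactors, 7 were tested, 3 higher and 3 lower in PANC-1. Over all genes 62.0% were called higher and 21.3% lower. FRMD8, which binds the iRhoms, averaged 65.7 TPM in AsPC-1 against 61.3 in PANC-1 and did not pass (adjusted p = 0.0659, limma), though it was called lower after quantile normalization, after rescaling and with voom weights. ADAM9 averaged 48.7 and 21.0 TPM, and the iRhom gene RHBDF1 40.3 and 20.3 TPM, both lower in PANC-1 under every scaling. ADAM10 averaged 20.0 and 29.5 TPM, higher in PANC-1, a call that was lost under those 3 alternatives (adjusted p = 0.717, 0.114 and 0.0556, limma). ADAM17, the main sheddase of TGFA, AREG, EREG and HBEGF, averaged 5.99 TPM in AsPC-1 against 15.4 in PANC-1, and its partner RHBDF2 8.95 and 26.4 TPM; these 2 were named after their values were seen. The line with less AREG, TGFA and EREG had more ADAM17 and RHBDF2 RNA and less ADAM9 and RHBDF1 RNA, so the list went both ways.

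Of 10 receptor inhibitors and turnover genes, 8 were called higher in PANC-1 and none lower. LRIG1, among the 8, entered the fits only through PANC-1. After quantile normalization 6 were higher and 3 lower (LRIG2, LRIG3 and CBLB). After rescaling, and with voom weights, 7 were higher and 2 lower (LRIG3 and CBLB). ERRFI1, which encodes a cytoplasmic inhibitor of EGFR, averaged 49.5 TPM in AsPC-1 against 699 in PANC-1 (3.79 ± 0.1004, SE). CBL, a ubiquitin ligase for EGFR, averaged 10.97 and 44.8 TPM. Of 7 adaptors, 5 were called higher and 1 (GAB1) lower in PANC-1. After quantile normalization 2 were higher and 2 lower (GAB1 and PTPN11), and PTPN11 was also called lower after rescaling and with voom weights. SHC1 averaged 98.1 TPM in AsPC-1 against 512 in PANC-1, and GRB2 50.5 and 114 TPM. Against 62.0% of all genes called higher on the main scale, the main counts are not far from the background. Over all genes, 7863 of 19122 were higher and 7103 lower after quantile normalization. The counts were 9696 and 6214 of 20467 after rescaling, and 9044 and 5706 of 18327 with voom weights. None of the genes on these lists was called for a compound.

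The genes whose levels followed a ligand most closely across the 8 libraries, after each line's mean log2(TPM + 1) was subtracted, were ranked among 8630 genes averaging at least 10 TPM. For TGFA they were PARP3 (Pearson r = 0.975), CCN2 (0.973) and SETD3 (0.972). CCN2, which encodes a connective tissue growth factor, stood at 12.05, 15.0, 15.8 and 18.2 TPM in AsPC-1, the same order as TGFA except that TGFA was slightly higher with roseoflavin than with trametinib. For AREG they were GPR39 (0.949), ZBTB7A (0.932) and THRAP3 (0.930). For EREG they were TRIM11 (0.964), MIR7111 (0.941) and LIPH (0.940), and for HBEGF they were CGAS (0.951), DNTTIP2 (0.935) and the pseudogene FCF1P2 (0.926), whose reads may be shared with its parent gene. The points are 8 libraries that share 4 treatments, and the highest of so many values describe these libraries only.

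Among the ligands themselves the closest pair was AREG and NRG1 (r = 0.809), in which NRG1 has no variation in AsPC-1, followed by AREG and TGFA (0.710). The neighbours AREG and EREG reached 0.373.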

How the data were processed

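RNA was measured in 8 libraries, 1 per line and treatment, made with the TruSeq stranded mRNA kit per the labels' protocols. Alignment with STAR 2.7.3a, HTSeq 2.0.2 and the build hg38 are named in the submitters' processing notes. The authors deposited TPM per gene in 1 table of 62649 genes, and 985926 blank rows were dropped.

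Linear models on log2(TPM + 1) used limma 3.58.1 (R 4.3.3, eBayes with trend) over the 19122 genes that reached 1 TPM in 2 libraries, with Benjamini-Hochberg adjustment over all of them and a threshold of 0.05. This scale understates changes of low genes. The line difference had 3 residual degrees of freedom, the effects over both lines 4, and the effects within a line, fitted with each compound nested in line, 2. The fits were tested on simulated data. P-values measure the spread between these libraries, which may be technical.

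After the data were seen, reads were recovered from TPM and GENCODE 29 exon lengths: 87.8% to 89.5% of low values came out whole within 0.1 read. These reads gave exact 95% counting intervals and a limma fit with voom weights. Exon lengths of members under 40 reads were adjusted to give whole reads.

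The members and lists were chosen with earlier results of these data known. The genes named are the 8 ligands, list genes past the threshold for a compound, and up to 4 per list with the highest mean for the line difference. Alternatives were another pseudocount, other filters, quantile normalization, rescaling without mitochondrial genes and each library left out.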

Additional observations from a re-analysis of the deposited data

Results flagged for a closer look

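BTC had opposite directions in the lines with trametinib. In AsPC-1 both libraries with trametinib were below both without it (0.247 and 0.121 against 0.298 and 0.333 TPM), and in PANC-1 both were above (0.216 and 0.167 against 0.084 and 0.117 TPM). The mean changes differed by 0.2225 TPM. The difference was not tested, since BTC did not reach the level needed to enter the fits, and it rests on 2 to 8 reads per library.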

How the results depend on the processing

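Leaving out each library in turn gave 15208 to 15422 genes called for the line difference and 0 to 0 genes in each of the other 10 contrasts. Among the ligands these refits reversed a direction within a line only for changes below the threshold. Leaving out 1 library of a line leaves 1 of its 2 matched comparisons per compound. The ranges within a line therefore restate those comparisons and are no separate check. In PANC-1 the trametinib change ranged from -0.45 to 0.14 for AREG and from -0.16 to 0.054 for NRG1, and the roseoflavin change from -0.51 to 0.082 for AREG, from -0.24 to 0.14 for HBEGF and from -0.20 to 0.012 for NRG1. In AsPC-1 the roseoflavin change of EREG ranged from -0.046 to 0.061, and the roseoflavin difference between lines for HBEGF ranged from -0.34 to 0.043. Other ligand changes kept their sign but moved by over 1.5 times. With trametinib these were AREG (0.073 to 0.30) and EREG (0.091 to 0.20) in AsPC-1 and EREG (-0.34 to -0.058) and HBEGF (-0.52 to -0.14) in PANC-1. With roseoflavin they were AREG (0.071 to 0.29) and HBEGF (0.059 to 0.13) in AsPC-1 and EREG (0.059 to 0.34) in PANC-1. Of 163 ligand values under the other alternatives, 160 kept their direction and their side of the threshold, and 3, all for the line difference of HBEGF, passed it (-0.73, -0.55 and -0.56). With a mean of at least 10 TPM required, 8313 genes were called for the line difference, since fewer were tested. With no filter on low values, 45, 155, 42 and 2 genes were called for trametinib in AsPC-1 and PANC-1 and roseoflavin in AsPC-1 and PANC-1, 106 and 27 for the differences between lines, and 14 for the interaction. With voom weights, chosen after the data were seen, the calls were 13 and 5 for trametinib and roseoflavin over both lines, 346 and 1 for trametinib in AsPC-1 and PANC-1, 118 and 198 for roseoflavin, and 141 for the roseoflavin difference. The cause was not tested. Of changes between single libraries past 0.32 in log2(TPM + 1) there were 9, and 0 at a fold of 1.5 on that scale. In TPM itself some low ligands of PANC-1 moved farther. AREG differed by -44.2% with roseoflavin alone, and EREG by 50.3% with roseoflavin on top of trametinib. No paired analysis was possible because each group had 1 library and so no second replicate number. Lines and treatments were matched as terms in the fits. Depth limits BTC, EPGN, EGF and, in PANC-1, TGFA and AREG, to at most 30 reads per library.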
